A study of Macaca mulatta with 30 samples.

Results

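Described here are 8 genes of resident macrophages across 5 tissues of the rhesus macaque: CD5L, MARCO, TIMD4, VSIG4, CD163, MRC1, CSF1R and CD68. They were chosen by name as genes of macrophages and of Kupffer cells, the macrophages of the liver sinusoids, and 8 of 8 were found among the 21292 genes of the deposited table. RNA was sequenced from liver, pancreas and the parotid, submandibular and sublingual salivary glands of 6 animals (Macaca mulatta), of which the labels give 1 to 4 as female and 5 and 6 as male, with 1 flash frozen piece and 1 library per tissue and animal. The library names give the left gland for all salivary libraries except the parotid of animal 3, which is given as right. The 30 libraries therefore form 5 groups of 6, paired by animal, and the labels used here name no treatment, genotype or age. The series was set up to compare amylase genes between glands, pancreas and liver, so the macrophage genes are a by-product of whole-tissue sequencing.

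Kupffer cells line the blood sinusoids of the liver, where they take up bacteria, opsonised particles, dying cells and haemoglobin from portal blood. They depend on signalling through CSF1R, and the liver X receptor NR1H3 helps to maintain their identity. Salivary glands, pancreas and fat hold their own resident macrophages, which share the general macrophage genes with Kupffer cells.

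Values are TPM, a transcript's abundance corrected for its length and scaled to a fixed total per library, so levels can be set beside each other between genes. Depth is unknown from such values, and no counting interval is given. Fold changes are differences of log2(TPM + 1) between tissues, estimated with limma over all 30 libraries with the animal as a block. The added 1 understates the change of genes near 1 TPM. A gene is said to be higher or lower where its p-value, adjusted by Benjamini-Hochberg over the 13550 genes tested, was below 0.05. In pieces of whole tissue, fewer cells of a type and less RNA per cell cannot be told apart.

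Of the 8 genes, 7 reached 1 TPM in at least 6 libraries and were tested. CD5L, MARCO and MRC1 did so only with the help of the liver libraries: outside liver they reached 1 TPM in 4, 1 and 2 of 24 libraries. TIMD4 reached it in 1 liver and 1 other library, and is described by its values and by a fit without the filter.

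Of the libraries, 2 stood apart: the pancreas and the submandibular libraries of animal 4. The summed pancreatic acinar genes were at 3353 TPM in that pancreas library, against 285469 TPM for the median pancreas library. The summed salivary secretory genes were at 10132 TPM in that submandibular library, against 289815 TPM for the median submandibular library, and so within the range of the livers (8878 to 12648 TPM). Both libraries were thus low in the markers of the tissue on their label. The summed adipocyte genes were at 18343 TPM in the pancreas and at 8411 TPM in the submandibular library, against at most 1747 and 140 TPM in the other 5 of each. Where a call or a direction changed without these libraries, the value without them is given too. In the fit the 5 tissues share 1 estimate of spread per gene. These 2 libraries therefore also affect the SE of comparisons between other tissues. For TIMD4 in liver against parotid, the SE was 0.33 with them and 0.12 without them, at the same difference of 0.64. The 7 hepatocyte genes measured were higher in liver in each of the 4 comparisons, and in other tissues their median stood at 0.323 to 2.14% of the level in the same animal's liver.

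CD5L and MARCO were the members with the highest liver levels and the widest gap to the other tissues. CD5L encodes a secreted scavenger protein made by tissue macrophages. In liver it was at 53.5, 86.4, 67.3, 33.3, 43.8 and 26.0 TPM in animals 1 to 6 (51.7 ± 22.4 TPM, SD, n = 6). Its medians were 0.594 TPM in pancreas, 0.322 TPM in parotid, 0.408 TPM in submandibular and 0.633 TPM in sublingual gland. Every liver library was above every one of the 24 other libraries, the nearest being the submandibular library of animal 4 at 16.6 TPM. The other 23 stayed at or below 2.07 TPM.

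MARCO, a scavenger receptor that binds bacteria and particles, was at 30.0, 21.6, 34.4, 13.9, 16.3 and 6.63 TPM in the livers of animals 1 to 6. Outside liver it ranged from 0 TPM, in the parotid and submandibular libraries of animal 6, to 1.12 TPM in the pancreas library of animal 4. The lowest liver library was thus above all 24 others. Unlike CD5L, MARCO did not stand out in the submandibular library of animal 4, where it was at 0.362 TPM. In the same animal's liver it was at 13.9 TPM.

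**Figure D1:**
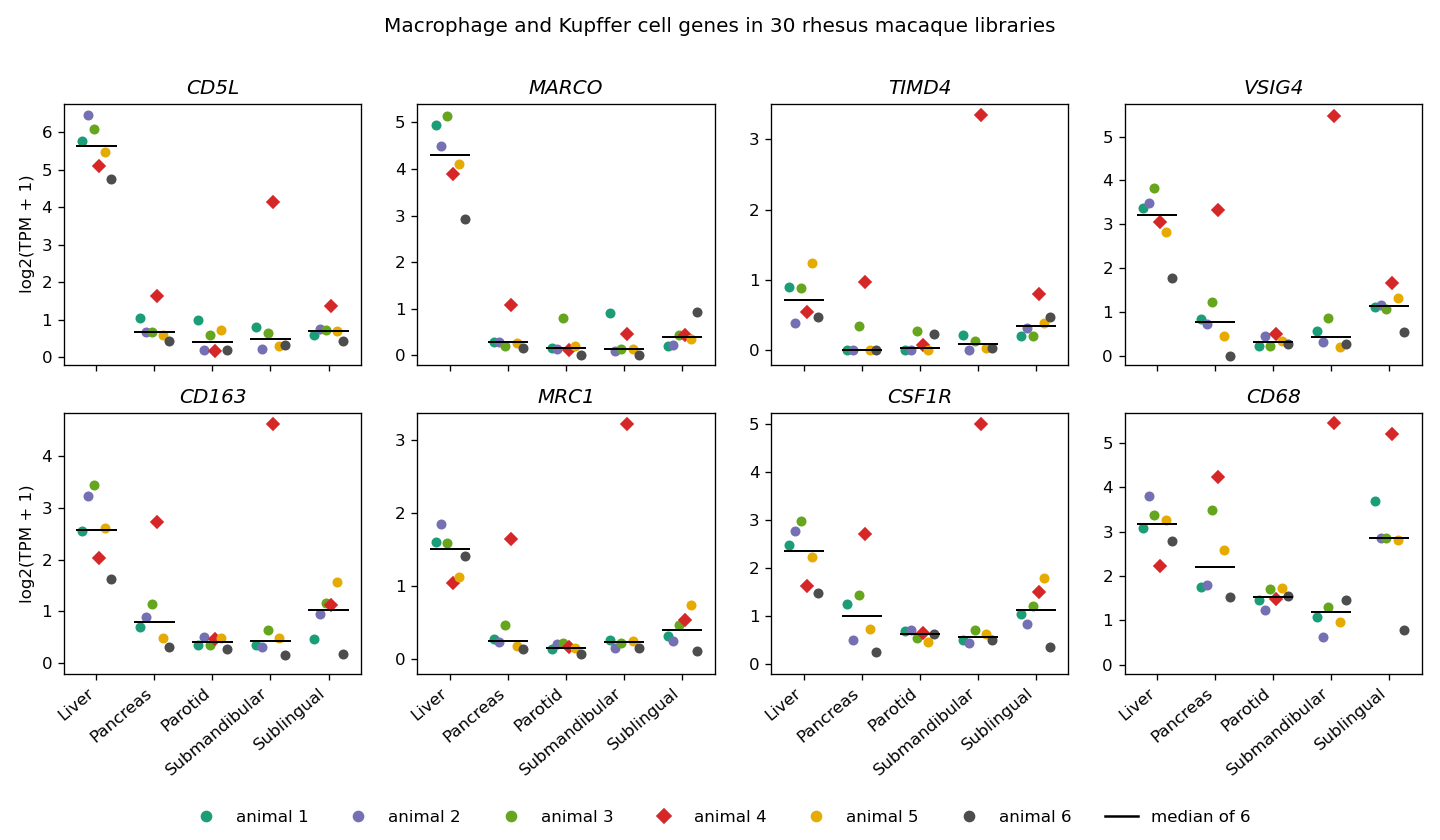
Level of each gene as log2(TPM + 1) on the vertical axis in the 30 libraries, grouped by tissue on the horizontal axis. Each point is 1 library, colours mark the animals, diamonds mark animal 4 and lines are medians of 6. For CD5L and MARCO the 6 liver points lie above all others, while for VSIG4, CD163, MRC1, CSF1R and CD68 the submandibular library of animal 4 lies above the liver.

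The log2 fold changes of CD5L were 5.14 (SE 0.41) against parotid, 4.54 against submandibular gland, 4.85 against sublingual gland and 4.77 against pancreas, with limma adjusted p-values of 6.44e-11, 8.49e-10, 2.52e-10 and 3.81e-10. Liver was higher in 6 of 6 animals in each comparison. For MARCO they were 4.02 (SE 0.27), 3.97, 3.83 and 3.88 in the same order, with adjusted p-values of 1.13e-12, 1.50e-12, 3.58e-12 and 2.92e-12, again in 6 of 6 animals. On the TPM scale the median within-animal ratio of liver to another tissue was 80.1 to 156 for CD5L. For MARCO it was 78.7 to 160, over the animals in which the other tissue was not listed at 0.

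Set beside the hepatocyte genes, the low values of both outside liver were of similar size. CD5L stood at a median of 1.25% of the same animal's liver level in pancreas, 0.653% in parotid, 0.899% in submandibular and 1.14% in sublingual gland. MARCO stood at 1.12, 0.543, 0.462 and 1.36% in the same order. The median of the 7 hepatocyte genes was 0.931, 0.507, 0.642 and 0.694%. CD5L exceeded each of the 7 hepatocyte genes in 8 of 24 libraries and MARCO in 8 of 24, while CD163 did so in 22 and CD68 in 24. One of the 7, TTR, reached 1.08 to 45.3% of its liver level in pancreas and at most 1.37% in the glands. Against the other 6 hepatocyte genes the counts were 9 for CD5L, 11 for MARCO, 24 for CD163 and 24 for CD68, and in pancreas those of CD5L and MARCO went from 1 and 1 to 2 and 4 of 6 libraries. Whether the low CD5L and MARCO values came from cells of the other tissues was not tested.

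**Figure D2:**
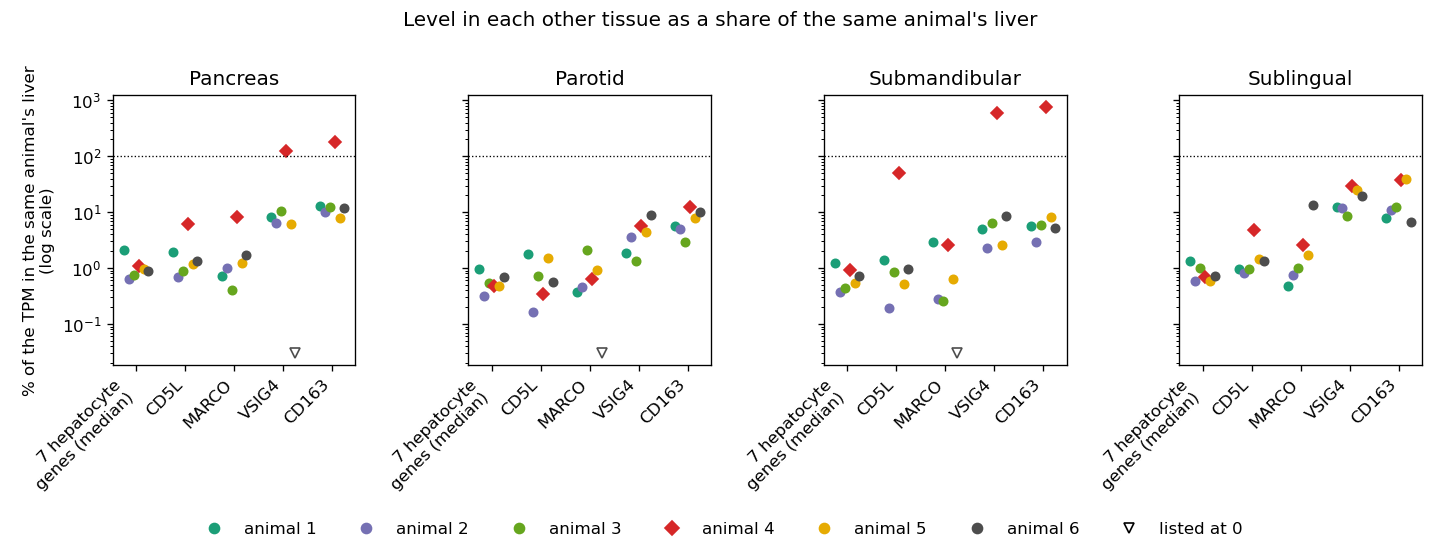
TPM in each other tissue as a percentage of the TPM in the same animal's liver, on a log axis, for the median of 7 hepatocyte genes and for 4 members, with 1 panel per tissue. Points are animals, diamonds mark animal 4, open triangles at the lower edge are values listed at 0, and the dotted line is the liver level. CD5L and MARCO mostly lie near the hepatocyte genes, while VSIG4 and CD163 mostly lie above them and, in 2 libraries of animal 4, above the liver level.

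TIMD4 encodes a receptor for phosphatidylserine on dying cells and marks long-lived resident macrophages. It was low throughout, at 0.864, 0.311, 0.856, 0.466, 1.37 and 0.384 TPM in the livers of animals 1 to 6. In pancreas it was listed at 0 in 4 of 6 libraries and in parotid in 3 of 6. In the submandibular library of animal 4 it reached 9.11 TPM, which was 6.67 times the highest liver library. In a fit without the filter, over 20650 genes, liver and parotid differed by 0.64 (SE 0.33, limma adjusted p = 0.122), and the other liver comparisons gave 0.11 to 0.52 with adjusted p-values of 0.280 to 0.863. The TIMD4 result changed with animal 4. Every liver library was above every parotid library, the highest of which was at 0.216 TPM, and the 5 other submandibular libraries were at 0.064 ± 0.070 TPM (SD, n = 5). With the 2 libraries of animal 4 left out, TIMD4 was higher in liver by 0.64 against parotid, 0.64 against submandibular gland, 0.34 against sublingual gland and 0.66 against pancreas, with limma adjusted p-values of 0.000109, 0.000196, 0.0269 and 0.000255. At a pseudocount of 0.1, with all libraries, the parotid and pancreas differences were 2.25 (adjusted p = 0.00771) and 1.98 (0.0287).

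VSIG4, a complement receptor of tissue macrophages that captures opsonised bacteria, was at 9.41, 10.2, 13.1, 7.34, 6.02 and 2.40 TPM in the 6 livers. The highest parotid and sublingual libraries were at 0.414 and 2.17 TPM, so both glands lay below the liver. Pancreas and submandibular gland overlapped with the liver through animal 4 alone, at 9.02 and 43.5 TPM. The other 5 libraries of each stayed at or below 1.35 and 0.827 TPM.

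VSIG4 was higher in liver by 2.71 (SE 0.49) against parotid, 1.77 against submandibular gland, 1.91 against sublingual gland and 1.96 against pancreas on the log2 scale. The limma adjusted p-values were 6.04e-05, 0.00454, 0.00348 and 0.00311. Without the 2 libraries of animal 4 the submandibular and pancreas values were 2.56 and 2.36.

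CD163, the receptor that clears haemoglobin bound to haptoglobin, lay at a lower level than VSIG4 in liver. It was at 4.84, 8.38, 9.83, 3.09, 5.09 and 2.10 TPM in the livers, at 0.210 to 0.423 TPM in parotid and at 0.138 to 1.98 TPM in sublingual gland, with no overlap between liver and either gland. The pancreas and submandibular libraries of animal 4 held 5.64 and 23.3 TPM, and the other 5 of each at most 1.21 and 0.568 TPM. In the submandibular library this was 7.54 times the level in the same animal's liver.

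The log2 fold changes of CD163 were 2.17 (SE 0.45), 1.49, 1.67 and 1.54 against parotid, submandibular gland, sublingual gland and pancreas, with limma adjusted p-values of 0.000291, 0.00859, 0.00521 and 0.0109. The submandibular call was lost without animal 1, 2 or 3 (adjusted p = 0.0531, 0.0743 and 0.0694) and the pancreas call without animal 1, 2, 3 or 5 (0.0540, 0.0677, 0.0577 and 0.0521). Without the 2 libraries of animal 4, which are the ones that overlapped with liver, CD163 was higher in liver by 2.21 and 1.89 in these comparisons, with adjusted p-values of 5.03e-09 and 9.27e-08.

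MRC1, the mannose receptor of tissue macrophages and of sinusoidal endothelium, was the lowest of the tested members in liver, at 1.07 to 2.63 TPM with a median of 1.85 TPM. Its medians elsewhere lay between 0.117 TPM in parotid and 0.316 TPM in sublingual gland. The submandibular library of animal 4 held 8.32 TPM, above every liver. MRC1 was higher in liver than in parotid by 1.28 (SE 0.32, limma adjusted p = 0.00163), than in sublingual gland by 1.04 (0.0136) and than in pancreas by 0.95 (0.0253). The sublingual call was lost without animal 1, 2, 3 or 6 and the pancreas call without animal 1, 2, 3, 5 or 6, with adjusted p-values from 0.0506 to 0.133. Against submandibular gland the difference was 0.73 (adjusted p = 0.0582), and 1.25 without the 2 libraries of animal 4 (adjusted p = 3.71e-08).

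CSF1R, the receptor for the macrophage growth factors CSF1 and IL34, was at 4.58, 5.89, 6.98, 2.09, 3.68 and 1.81 TPM in the livers and at 0.384 to 0.640 TPM in parotid. Pancreas ranged from 0.192 to 5.61 TPM, sublingual gland from 0.290 to 2.50 TPM and submandibular gland from 0.352 to 31.1 TPM, with the pancreas and submandibular maxima in animal 4. CSF1R was higher in liver than in parotid by 1.65 (SE 0.48, limma adjusted p = 0.00499). Against submandibular gland, sublingual gland and pancreas it differed by 0.97, 1.14 and 1.11, with adjusted p-values of 0.0907, 0.0721 and 0.0797. Without the 2 libraries of animal 4 these became 1.73, 1.14 and 1.44, with adjusted p-values of 1.29e-06, 0.000203 and 2.49e-05. The sublingual difference stayed at 1.14, since no liver or sublingual library was left out. Its adjusted p-value fell with the spread that the 5 tissues share.

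CD68, a glycoprotein of lysosomes that is abundant in phagocytes, had the smallest gap of the 7 between liver and sublingual gland and between liver and pancreas. In liver it was at 7.46, 13.005, 9.33, 3.70, 8.63 and 5.90 TPM. In sublingual gland it was at 11.9, 6.29, 6.26, 35.9, 6.06 and 0.713 TPM, which spans the liver range on both sides. Pancreas libraries ranged from 1.90 to 17.7 TPM and submandibular libraries from 0.555 to 42.1 TPM, with both maxima in animal 4, while parotid stayed within 1.34 to 2.30 TPM.

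CD68 was higher in liver than in parotid by 1.56 (SE 0.55, limma adjusted p = 0.0186), a call lost with trimmed-mean scaling (0.58, adjusted p = 0.269) and without animal 2, 3 or 5 (adjusted p up to 0.0785). The other differences were 1.27 against submandibular gland (adjusted p = 0.0566), 0.05 against sublingual gland (0.957) and 0.53 against pancreas (0.503). Without the 2 libraries of animal 4 the submandibular difference was 1.91 (adjusted p = 0.000862) and the pancreas difference 0.78 (0.167). The sublingual value changed sign with the scaling, to -0.09 with trimmed means, and also without animal 2, 3, 5 or 6.

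**Figure D3:**
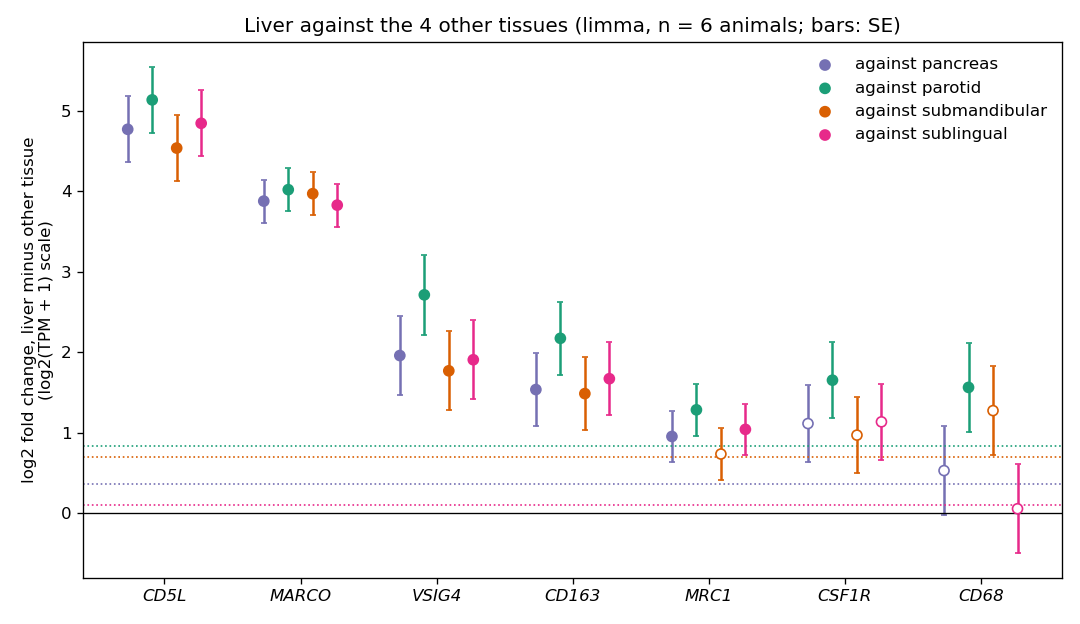
Difference in log2(TPM + 1) between liver and each other tissue for the 7 tested genes, with SE bars from limma (n = 6 animals). Filled points have an adjusted p-value below 0.05, open points do not, and dotted lines give the median of all 13550 genes in the comparison of the same colour. CD5L and MARCO lie between 3.83 and 5.14 in every comparison and CD68 between 0.05 and 1.56.

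Counted together, 7 of 7 tested members were higher in liver than in parotid, where 53.4% of all tested genes were, and the members' median of 2.17 stood beside 0.84 for all genes. The median of all genes was 0.70 against submandibular gland, 0.10 against sublingual gland and 0.36 against pancreas. Against submandibular gland 4 of 7 were higher (background 45.1%), against sublingual gland 5 of 7 (18.7%) and against pancreas 5 of 7 (23.6%). No tested member was lower in liver. CD5L, MARCO, VSIG4 and CD163 were higher in each of the 4 comparisons, and the share of all genes that were was not counted. The counts were 7, 7, 6 and 6 of 7 without the 2 libraries of animal 4, beside 63.5, 67.6, 24.7 and 41.6% of all genes. Because 3 of the 7 passed the filter only with the liver libraries, these counts describe the list and are no measure of how unusual it is.

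The split of all genes moved with the scaling of the libraries. Of the 13550, 7232 were higher and 624 lower in liver than in parotid, and trimmed-mean scaling turned this into 3058 and 2867. Against submandibular gland 6107 and 769 became 3327 and 3010, and against pancreas 3198 and 916 became 2720 and 2255. Against sublingual gland both counts rose, from 2540 and 1733 to 3048 and 2974. After that scaling 6, 5, 6 and 6 of 7 members were higher in liver against parotid, submandibular gland, sublingual gland and pancreas, beside 22.6, 24.6, 22.5 and 20.1% of all genes. The CD5L values were then 4.30, 3.95, 4.40 and 4.25.

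Outside liver the members ranked differently from gene to gene. By the median of 6 libraries liver came first for 8 of 8 genes. The share of all genes for which it did was not counted, so nothing is read from this. By the mean, submandibular gland came first for TIMD4 and CSF1R and sublingual gland for CD68, each with its highest library in animal 4. Among the 3 glands and pancreas, limma found no tested member different in 5 of 6 comparisons: parotid against pancreas (background 15.8% of genes in either direction), submandibular gland against pancreas (9.71%), sublingual gland against pancreas (13.9%), parotid against submandibular gland (0.347%) and submandibular against sublingual gland (27.9%). At an unadjusted p below 0.05 the member counts were 0, 0, 0, 0 and 1.

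In the sixth, CD68 was lower in parotid than in sublingual gland by 1.51 on the log2 scale (SE 0.55, limma adjusted p = 0.0320, in 5 of 6 animals), where 41.5% of all genes differed. Scaling by trimmed means gave -0.67 (adjusted p = 0.279), and the call was also lost without animal 1, 2, 3 or 5 and without the animal block (0.0592). Without the 2 libraries of animal 4, 3 members differed between parotid and sublingual gland and 4 between submandibular and sublingual gland, where 58.8 and 67.2% of all genes did.

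The members were next set against other macrophage transcripts of the same library, since a ratio of 2 genes within a library does not depend on its total. C1QA, C1QB and C1QC encode the chains of complement C1q, which tissue macrophages make in large amounts. Their mean was 42.1 to 190 TPM in liver, 2.81 to 5.51 TPM in parotid, 3.33 to 44.7 TPM in sublingual gland, 2.41 to 108 TPM in pancreas and 2.89 to 369 TPM in submandibular gland. The pancreas and submandibular maxima were those of animal 4.

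VSIG4 had close medians relative to this mean in the 5 tissues. They were 7.03% in liver, 7.15% in pancreas, 6.49% in parotid, 8.54% in submandibular and 7.86% in sublingual gland. The liver libraries (5.71 to 9.95%) lay within the spread of the others, in which 1 pancreas library was listed at 0 and the highest was at 13.9%. CD163 had medians of 5.09, 7.80, 7.37, 6.98 and 5.28% in the same order.

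CD5L differed between liver and the rest on this scale. It was at 35.5 to 61.8% of the C1Q mean in liver, with a median of 48.3%, and at medians of 3.67 to 8.03% in the other tissues. The highest of the 24 other libraries, a parotid library, was at 25.9%, below every liver. MARCO was at 14.8 to 23.9% in liver and at medians of 1.31 to 3.01% elsewhere, with 2 libraries overlapping: the submandibular library of animal 1 at 17.8% and the sublingual library of animal 6 at 27.1%. Both rest on low values, with MARCO at 0.875 and 0.903 TPM.

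CD68 and CSF1R went the other way. CD68 was at 4.92 to 14.0% of the C1Q mean in liver, with a median of 7.45%. In the other tissues its medians were 21.8 to 43.9%, and only the submandibular library of animal 4, at 11.4%, reached into the liver range. CSF1R was at 2.83 to 4.33% in liver and at medians of 7.39 to 13.6% elsewhere, where the lowest library, the sublingual one of animal 4, was at 4.15% and alone reached into the liver range. MRC1 ranged from 1.07 to 3.97% in liver and from 1.00 to 4.12% in the others, with no separation.

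**Figure D4:**
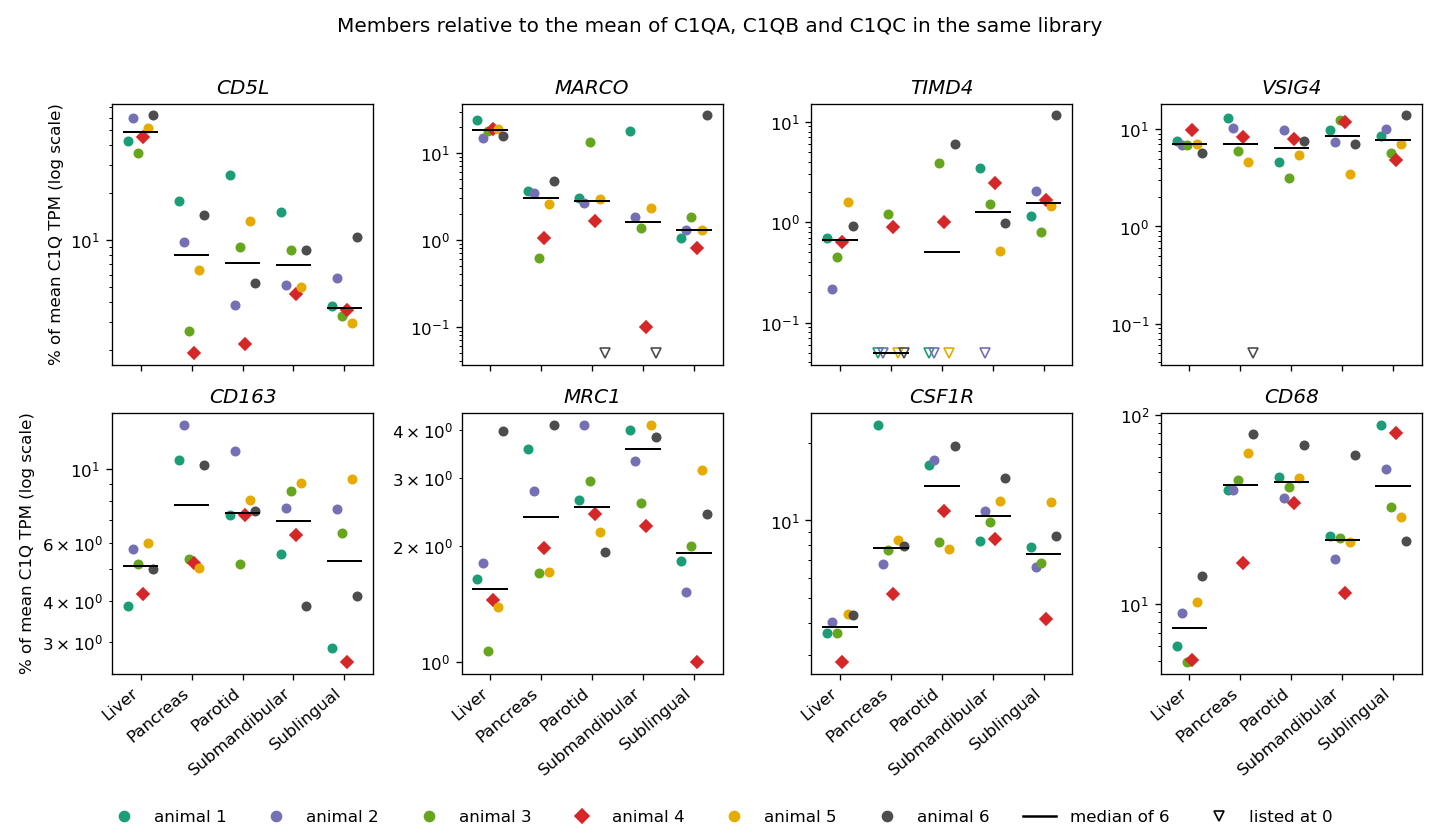
Each gene as a percentage of the mean TPM of C1QA, C1QB and C1QC in the same library, on log axes that differ between panels, by tissue. Points are animals, diamonds mark animal 4, lines are medians of 6 and open triangles are values listed at 0. CD5L and MARCO are high relative to C1Q in liver, VSIG4 has medians of 6.49 to 8.54%, and CSF1R and CD68 are low in liver.

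The submandibular library of animal 4 shows the contrast at high levels. Its 8 members summed to 174 TPM, against at most 4.45 TPM in the other 5 submandibular libraries and 148 TPM in the highest liver. VSIG4 was at 11.8% of the C1Q mean and CD163 at 6.32%, which is 1.68 and 1.24 times the liver medians and above the highest livers (9.95 and 5.98%). CD5L was at 4.51% and MARCO at 0.0983%, which is 10.7 and 188 times below the liver medians, while TIMD4 was at 2.47%, 3.74 times above. In the pancreas library of animal 4 CD5L and MARCO were at 1.91 and 1.04% and VSIG4 and CD163 at 8.33 and 5.21%. Adipocyte genes summed to 8411 and 18343 TPM in these libraries and blood genes to 5848 and 6012 TPM, and their part in the member levels was not tested.

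A test across all genes used the median of 10 macrophage genes that are not members (the C1Q chains, TYROBP, FCER1G, AIF1, CTSS, CYBB, SPI1 and MS4A7), subtracted from every gene of a library on the log2 scale. Relative to it CD5L was higher in liver by 2.24 against parotid, 2.28 against submandibular gland, 3.50 against sublingual gland and 2.98 against pancreas, with limma adjusted p-values of 2.27e-06, 3.58e-06, 4.69e-09 and 8.15e-08. MARCO was higher by 1.12, 1.71, 2.48 and 2.09, with adjusted p-values of 0.0367, 0.00307, 0.000144 and 0.000703. No other member was higher in liver in this fit, in which 4.12, 5.26, 6.63 and 5.08% of all genes were. Both genes passed the filter only with the liver libraries, so nothing is read from these shares. Without the 2 libraries of animal 4 the MARCO value against submandibular gland was 1.07 (adjusted p = 0.00795) and against pancreas 1.81 (6.14e-05), and those of CD5L were 2.20 and 2.71.

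CD68 was lower in liver relative to the reference in all 4, at -1.34, -0.99, -1.29 and -1.26, with limma adjusted p-values of 0.000849, 0.0116, 0.00218 and 0.00232. Its submandibular call was lost without animal 1 or 3 (0.0676 and 0.0508) and at a pseudocount of 0.1 (0.0812). VSIG4 differed from the reference by -0.19, -0.49, 0.56 and 0.17, with adjusted p-values of 0.0819 to 0.585, and the sublingual value was called without the 2 libraries of animal 4 (adjusted p = 0.0312). On this scale genes near 1 TPM cannot fall as far as an abundant reference, so values at a pseudocount of 0.1 stand beside it. They were 3.28 to 4.53 for CD5L, 3.00 to 4.01 for MARCO, 0.38 to 1.08 for VSIG4 and -1.34 to -0.80 for CD68. VSIG4 was then higher in liver against parotid, sublingual gland and pancreas (adjusted p = 0.0132, 0.0183 and 0.0164). CD163 was at -0.73, -0.78, 0.32 and -0.25 relative to the reference and at 0.29, 0.08, 1.08 and 0.33 with the smaller pseudocount, so that 3 of 4 signs turned. CSF1R ranged from -1.29 to -0.21 and MRC1 from -1.62 to -0.31, and with the smaller pseudocount from -0.80 to 0.23 and from -0.61 to 0.75. At a pseudocount of 1, CD163 was also called lower in liver against parotid and submandibular gland. CSF1R and MRC1 were called lower in liver against parotid, submandibular gland and pancreas.

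The MARCO result depended on the reference. With C1Q genes alone it was -0.19, 0.77, 1.16 and 0.90, with limma adjusted p-values of 0.0851 to 0.773, and the parotid value had changed sign. CD5L against parotid was then 0.93 (adjusted p = 0.0609). The ratio to the C1Q mean in TPM, with no pseudocount, did not show this turn: MARCO was at 14.8 to 23.9% in liver and at 0 to 13.4% in parotid, with no overlap. VSIG4 was called lower in liver with C1Q genes alone against parotid (-1.497), submandibular gland (-1.44) and pancreas (-1.02). The limma adjusted p-values were 0.00183, 0.00309 and 0.0284. Its ratio in TPM did not show this, with medians of 7.03% in liver and 6.49 to 8.54% elsewhere. CD163, CD68, CSF1R and MRC1 were called lower in liver in each comparison with C1Q genes alone. Against parotid MARCO also lost its call without animal 1, 2, 3 or 5 (0.0642 to 0.0970) and without the animal block (0.0953).

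Within liver the members differed between animals by 2.46 times (MRC1) to 5.45 times (VSIG4) from the lowest to the highest library. Animal 6, a male, was lowest for CD5L, MARCO, VSIG4, CD163 and CSF1R, and animal 3, a female, was highest for MARCO, VSIG4, CD163 and CSF1R. C1QA had the same extremes, at 44.1 and 249 TPM. The liver of animal 6 also had the highest albumin gene (ALB) level, 46181 TPM.

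Across the 30 libraries the transcript most like VSIG4 was CD163 (Pearson r = 0.98 on log2(TPM + 1)), followed by C1QC (0.97) and C1QB (0.96). CSF1R was closest to C3AR1, CD163 and MRC1, and MRC1 to MPEG1, CSF1R and CD163. CD163 was closest to VSIG4, LRRC25 and CD209, and CD68 to SLC8B1, DBNL and C16H17orf58. CD5L had other neighbours: VWCE at 0.97, ADRA1B and HAAO, a tryptophan-degrading enzyme of hepatocytes. MARCO was closest to GRM2 at 0.98, to the sinusoidal endothelial receptor STAB2 and to NAGS, an enzyme of the urea cycle pathway. These correlations describe libraries that share tissue, animal and a fixed total, and a gene high only in liver will be close to any other such gene.

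After subtracting each tissue's mean, CD163 and CSF1R were closest to each other at 0.98, and at 0.87 over the 28 libraries without the 2 of animal 4. Over those 28 libraries VSIG4 was closest to C1QA (0.84), CD5L to CFP (0.74), MARCO to CEACAM3 (0.73), MRC1 to CD4 (0.84) and CD68 to PTGS1 (0.91). The 21 pairs of tested members had a median r of 0.85 over 30 libraries and of 0.56 over 28.

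The genes around the members were then read from lists. Of 19 genes tied to Kupffer cell identity and niche, 4 members among them, 16 were tested, and 14, 12, 9 and 9 of these were higher in liver against parotid, submandibular gland, sublingual gland and pancreas, with 0 lower. For this and the lists that follow, 53.4, 45.1, 18.7 and 23.6% of all genes were higher in liver in the same order. Later lists count members again: CSF1R among growth factor receptors, CD163 with haem and iron, and VSIG4 among complement receptors. MARCO and CD163 are in the scavenger list, CD68 in the lysosomal list and MRC1 in the sinusoidal endothelial list. Their calls are those already given and add nothing to them, and counts without members were not made. Besides CD5L and MARCO, the widest gaps were those of the complement gene C6 and of NR1H3. C6, which hepatocytes also make, was at 89.3 ± 46.3 TPM in liver (SD, n = 6) and higher by 5.35 to 5.67. NR1H3 was at 31.7 ± 7.88 TPM in liver and 0.866 ± 0.310 TPM in parotid, and was higher in liver by 2.93 to 4.11. Which liver cells the NR1H3 transcripts came from was not tested. CLEC4F, a Kupffer cell lectin of rodents, and SPIC, a factor of macrophages that recycle red cells, are named after their values were seen. CLEC4F was listed at 0 in 6 of 6 livers, and SPIC was at 0.407 ± 0.223 TPM there. A list of interstitial macrophage genes, MRC1 among them, had 8 genes tested. Of these, 7 were called in at least 1 liver comparison, and 2 were higher and 0 lower in liver in all 4. The shares of all genes that were so called were not counted.

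Of the ligands and receptors of myeloid growth factors, 3 of the 6 found were tested, and 2, 1, 1 and 1 were higher in liver, and nothing is read from a list of 3. CSF1, the main CSF1R ligand, was at 18.3 ± 3.45 TPM in liver and 1.21 ± 0.316 TPM in parotid, and was higher in liver by 2.29 to 3.12 (limma adjusted p = 7.96e-05 to 0.00209). The other ligand, IL34, was at 2.48 ± 0.735 TPM in liver and 4.31 ± 1.87 TPM in sublingual gland, with differences from -0.53 to 0.73 and adjusted p-values of 0.170 to 1.00.

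Of 9 macrophage transcription factors tested, 8, 7, 4 and 6 were higher in liver in the same order of tissues. NR1H3, CEBPA and CEBPB were among those higher in each comparison. Hepatocytes express CEBPA and CEBPB as well, and the share of each cell type was not tested.

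The haem and iron list holds genes that work beside CD163 in haemoglobin recycling. Of 10 tested, 6 were higher in liver in all 4 comparisons and 1, BLVRA, lower in all 4. The shares of all genes higher or lower in all 4 were not counted. HMOX1, which opens the haem ring, was at 20.9 ± 8.0 TPM in liver and higher by 2.54 to 3.51. BLVRB, a biliverdin reductase, was at 299 ± 25.1 TPM in liver and higher by 1.64 to 3.96. Its relative BLVRA was at 6.31 ± 0.867 TPM in liver and 65.5 ± 35.2 TPM in sublingual gland, and was lower in liver, with differences of -1.05 to -3.07.

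Among 9 complement and Fc receptor genes tested, 9, 8, 7 and 8 were higher in liver, with FCER1G, ITGB2, FCGR2B and VSIG4 furthest from the other tissues. Fc receptor genes have near-identical copies, between which the counting may divide reads. ITGB2, the shared chain of complement receptor integrins, was at 17.2 ± 2.81 TPM in liver and higher by 2.72 to 3.38. Among 9 scavenger receptor genes, 7, 5, 5 and 5 were higher and 0, 1, 0 and 0 lower, and STAB1 and STAB2 followed MARCO. STAB2 was at 9.76 ± 5.52 TPM in liver and at most 0.237 TPM on average elsewhere. Of 7 receptors and bridging proteins for apoptotic cells, the list of TIMD4, 3, 3, 3 and 2 were higher and 0, 0, 2 and 1 lower. PROS1 was higher in each comparison by 3.03 to 3.72, and its cell of origin was not tested. The medians of that list, 0.44, 0.15, 0.03 and 0.06, lay below those of all genes in each comparison.

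Of 16 lysosomal genes tested, the list of CD68, 14, 9, 5 and 6 were higher in liver, and CTSZ, CTSL, LGMN and LAMP1 had the widest gaps. CTSZ, a cathepsin, was at 659 ± 335 TPM in liver and 35.6 ± 15.0 TPM in parotid.

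Some markers of other cells were also higher in liver. Of 9 sinusoidal endothelial genes tested, 9, 7, 7 and 7 were higher in liver, with FCN2 at 256 ± 149 TPM and OIT3 at 19.1 ± 4.69 TPM. CD14, a monocyte gene that hepatocytes can also express, was at 290 ± 60.5 TPM in liver and 2.91 ± 0.936 TPM in parotid. The other monocyte gene tested, LYZ, which salivary glands also make, was lower in liver than in parotid by 2.38 and than in sublingual gland by 5.55 on the log2 scale (limma adjusted p = 0.00398 and 1.63e-07). Of 8 T and NK cell genes 7, 4, 1 and 4 were higher, led by GZMB, so that against submandibular and sublingual gland their share was near or below that of all genes. General endothelial genes were higher in 2, 2, 1 and 0 of 7 and lower in 0, 0, 0 and 1. B and plasma cell genes were higher in 1, 0, 0 and 0 of 5 and lower in 0, 1, 3 and 0. Of 3 neutrophil genes 1 was higher in each comparison, and the 1 dendritic cell gene tested was not called. The summed blood genes reached 2262 TPM in the highest liver. The part of these cells in the member levels was not tested.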

How the data were processed

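RNA was sequenced from 30 libraries, 6 rhesus macaques with 5 tissues each. Per the labels, RNA came from 3 sections of 30 µm per tissue, was DNase treated and was sequenced as read pairs of 150 bases. The authors deposited 1 table of TPM, and the submitters' processing notes name kallisto among several tools. The transcriptome, genome build and versions are not given in the sources used here, so coordinates and sequences are not printed. Columns sum to 999998 to 1000001 TPM, and 0 sample columns were left out. Between 8477 and 13515 genes reached 1 TPM in a library.

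Groups and animal numbers were taken from the sample titles. On the log2(TPM + 1) scale, limma 3.58.1 (R 4.3.3) fitted tissue and animal to the 30 libraries at once, with variances moderated along a trend and two-sided p-values adjusted by Benjamini-Hochberg within each of 10 tissue pairs (threshold 0.05). A gene had to reach 1 TPM in 6 or more libraries to be tested, which 13550 of 21292 did. The fit was tested on simulated data. Figures and summaries were made with Python 3.11.15, pandas 2.3.3 and matplotlib 3.10.9. A second fit subtracted the median of 10 macrophage genes from each library. Same-numbered libraries come from the same animal per the labels. Their deviations from the tissue means correlated at 0.161 on average, against -0.0186 for different animals, and the highest correlation of any 2 libraries was 0.979.

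The members, the gene lists and the alternatives were chosen with earlier results of these data known. Named from each list were at most 4 genes, those with the widest difference between liver and the mean of the other tissues among genes called in at least 1 liver comparison, and for each member the 3 genes most correlated with it. IL34, BLVRA, CLEC4F and SPIC were named after their values were seen. Alternatives were no animal block, a pseudocount of 0.1, no filter (20650 genes), a filter of 5 TPM (8324 genes), trimmed-mean scaling (30% of log ratios and 5% of mean levels trimmed at each end), quantile normalisation, only the 12 libraries compared, no variance trend, other reference genes, and leaving out each animal, the pancreas and submandibular libraries of animal 4, or these and 3 libraries high in muscle markers. Chosen after seeing the data were the fits of TIMD4 with libraries left out and the count without TTR. TTR was named after its values were seen.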

Additional observations from a re-analysis of the deposited data

Results flagged for a closer look

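In 40 sets of 6 libraries (8 genes in 5 tissues), 15 held a library whose gap to the next one passed Dixon's 95% limit. Chance gives about 1 in 20, or 2 of 40, and the sets share libraries. Of the 15, 12 were the pancreas or submandibular library of animal 4, which was the highest of its 6 in each.

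In submandibular gland that library was at 16.6 TPM for CD5L (next 0.737), 43.5 TPM for VSIG4 (next 0.827), 9.11 TPM for TIMD4 (next 0.170) and 23.3 TPM for CD163 (next 0.568). It was at 42.1 TPM for CD68 (next 1.76), 31.1 TPM for CSF1R (next 0.651) and 8.32 TPM for MRC1 (next 0.197). MARCO was the member that did not pass the limit there.

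In pancreas the library of animal 4 was at 1.12 TPM for MARCO (next 0.215), 9.02 TPM for VSIG4 (next 1.35), 0.97 TPM for TIMD4 (next 0.272), 5.64 TPM for CD163 (next 1.21) and 2.14 TPM for MRC1 (next 0.384). The other 3 were CD5L in the sublingual library of animal 4, at 1.60 TPM (next 0.693), MARCO in the parotid library of animal 3, at 0.737 TPM (next 0.148) and named as the right gland, and MARCO in the sublingual library of animal 6, at 0.903 TPM (next 0.361). None of 80 differences between tissues had opposite signs in all females and all males.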

How the results depend on the processing

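CD5L and MARCO were higher in liver against each of the 4 tissues in every alternative to the first fit in which they were tested. Without animal 4, MARCO and MRC1 fell below the filter. A filter of 5 TPM, which drops members, left 4 called against parotid, 3 against sublingual gland and 3 against pancreas (60.6, 21.3 and 28.3% of all genes). Against submandibular gland 7 were called at a pseudocount of 0.1, 7 without 2 libraries of animal 4 and 7 without 5 libraries (48.3, 67.6 and 71.6% of all genes). Leaving out 1 animal gave 3 to 5 against pancreas (14.8 to 41.0% of all genes), 0 to 1 for submandibular gland against pancreas (4.48 to 30.7%), 0 to 2 for parotid against sublingual gland (21.6 to 60.9%) and 0 to 2 for submandibular against sublingual gland (9.58 to 66.8%). For parotid against sublingual gland 0 were called without the animal block, 0 with no filter, 0 with trimmed means, 0 with quantiles, 2 at a pseudocount of 0.1, 2 with 12 libraries, 3 without 2 libraries of animal 4 and 2 without 5, beside 36.3, 30.8, 17.8, 18.0, 44.7, 31.8, 58.8 and 49.1% of all genes. For submandibular against sublingual gland the last were 4 and 2 (67.2 and 49.7%). CD68 in liver against sublingual gland turned to -0.086 with trimmed means and -0.15 with quantiles, and ranged from -0.34 to 0.66 with 1 animal left out. Relative to the reference, dropping the animal block left 1 call against parotid (3.53% of all genes), and MARCO lost its own (adjusted p = 0.0953). C1Q genes alone left 0, 1, 1 and 1 calls of higher in liver against parotid, submandibular gland, sublingual gland and pancreas (1.80, 2.89, 2.89 and 2.38%). A pseudocount of 0.1 gave 4 against sublingual gland (7.79%). With 1 animal left out the calls were 1 to 2, 1 to 2, 1 to 3 and 1 to 2 (3.43 to 6.48% over the 4). TIMD4, in alternatives chosen after seeing the data, ranged from -0.11 to 0.69 against submandibular gland with 1 animal left out, and was called against each tissue only when animal 4 was the one left out. Signs turned at a pseudocount of 0.1 for VSIG4 (1.08 against parotid, 0.38 against submandibular gland), CD163 (0.29 against parotid, 0.082 against submandibular gland, 0.33 against pancreas), MRC1 (0.75 against sublingual gland, 0.15 against pancreas) and CSF1R (0.23 against sublingual gland). They turned with C1Q genes alone for MARCO (-0.19 against parotid), VSIG4 (-0.76 against sublingual gland, -1.02 against pancreas) and CD163 (-1.0 against sublingual gland). VSIG4 against pancreas was -0.20 with the 7 other reference genes, and ranged from -0.0076 to 0.40 with 1 animal left out. The cause of these turns was not tested. TPM carry no depth, so the precision of values below 1 TPM is unknown.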

Other observations

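The submandibular library of animal 4 was also high in genes of some other immune and vascular cells. Dendritic cell genes summed to 45.2 TPM there, against at most 0.837 TPM in the other 5 submandibular libraries and 3.97 TPM in the highest liver. T and NK cell genes summed to 144 TPM, against at most 5.97 TPM in the other 5, and general endothelial genes to 216 TPM, against at most 6.21 TPM. The sums of B and plasma cell genes, at 226 TPM, and of monocyte genes, at 344 TPM, did not stand out. The highest of the other 5 were at 429 and 1311 TPM. These sums hold JCHAIN and LYZ, whose submandibular means were 193 and 631 TPM. They therefore do not settle whether the other genes of these lists were high in this library. The sinusoidal endothelial list summed to 341 TPM, against at most 6.99 TPM in the other 5 and 633 TPM in the highest liver. That sum holds MRC1 and STAB1, which are also in the list of interstitial macrophage genes. FCN2 and OIT3, of the same list, had submandibular means of 0.850 and 0.0932 TPM. Their parotid means were 1.13 and 0.0820 TPM. CLEC4G had means of 14.4 TPM in submandibular gland and 0.474 TPM in parotid. The sum therefore does not settle whether sinusoidal endothelial genes as a set were high in this library. All sums given here are single-library values without a test.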
